A study of Homo sapiens with 8 samples.

Results

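M3-1 is a metastatic derivative of 22Rv1, an androgen-responsive human prostate carcinoma cell line, and is compared here with the parental line. The members were the arrays whose titles name M3-1 or 22Rv1-Luc2, the parental cells with a luciferase label, 2 arrays each. They make 4 of the 8 arrays of the study, all of single-colour Illumina bead type, and a primary tumour derivative and a second metastatic derivative, M3-2, supplied 2 arrays each. All derivatives came from 22Rv1 cells propagated in vivo, and no drug, diet or genetic change other than the luciferase label of the parental cells is named. The sources used here do not give the host, how many animals were used, where the metastasis lay or what M3 means, and they do not tie the arrays of a group to separate cultures. P-values therefore cover only the variation among these arrays, possibly technical, and M3-1 stands for 1 derivative and not for metastases in general.

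Prostate luminal cells depend on androgens, steroid hormones that switch on secretory proteases, membrane transporters and stress-response cochaperones. Prostate carcinoma cells can reduce this programme, take on neurosecretory genes, or rewire the supply of amino acids and lipids. Androgens are removed from such cells by enzymes that reduce them or join them to glucuronic acid. The gene groups below follow these themes.

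Values are log2 intensities, so 1 unit is a 2-fold step. A probe was taken as above background where it exceeded 6.55, and 12291 genes passed on at least 2 arrays of the study. The deposited values end at a floor well above zero, so folds of dim genes are understated. Luminal epithelial markers were bright. In the M3-1 arrays the keratin gene KRT8 read 10.51 and 10.57, the epithelial adhesion genes CDH1 and EPCAM read 11.71 and 11.56, and 12.52 and 12.57, and the lineage factor FOXA1 read 12.92 and 12.81. None of these 4 passed the test against parental cells. The SD between arrays of a group was 0.10 in M3-1 and 0.22 in parental cells.

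Of the 12291 genes, 1219 (9.92%) changed between parental cells and M3-1 at an adjusted p below 0.05 (limma, Benjamini-Hochberg over all genes). Higher in M3-1 were 544 (4.43%) and lower were 675 (5.49%). A change of at least 2-fold was seen in 292 (2.38%), with 121 higher (0.984%) and 171 lower (1.39%), and at least 4-fold in 20 higher and 35 lower. The median difference over all genes was 0.00 on the log2 scale. The deposited arrays share a distribution, so this median could hardly have been otherwise. A shift common to all genes could not have shown. Among the genes called lower, 118 were not above background on either M3-1 array, and among those called higher 59 were not above it on either parental array. The count rested on having both M3-1 arrays in the fit, since 574 genes were called without M3-1 replicate 1 and 572 without M3-1 replicate 2. Unless stated otherwise, a gene said below to have risen or fallen kept its call in every other gene-level setting that tested it. Genes with a mean log2 intensity of 7 or less were left out of the setting that required more.

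**Figure D1:**
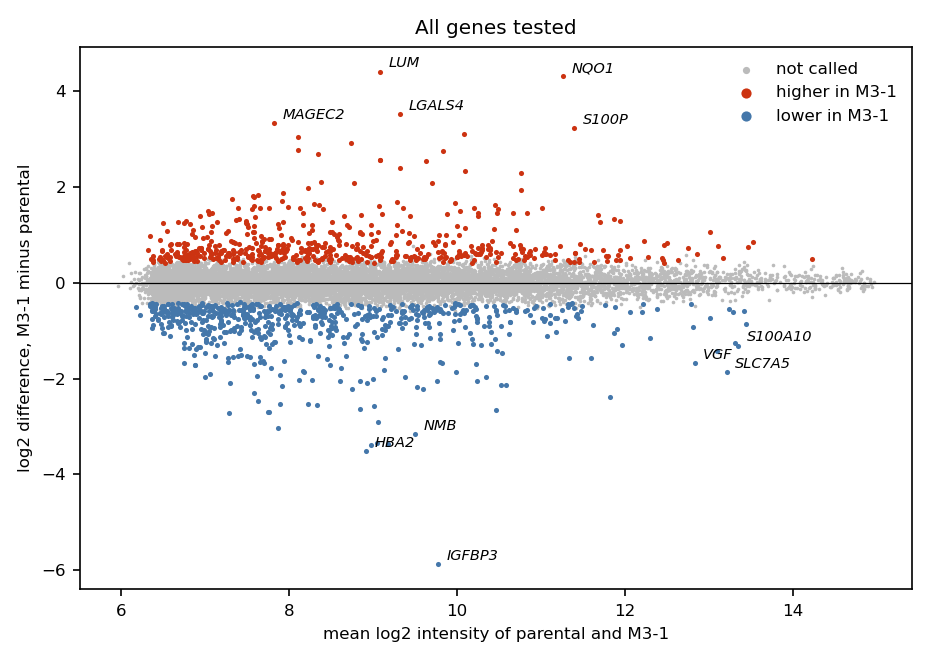
Log2 difference between M3-1 and parental cells against the mean log2 intensity of both groups, 1 point per gene tested. Red points are the 544 genes called higher and blue points the 675 called lower. LUM (4.41) and NQO1 (4.31) stand at the top and IGFBP3 (-5.88) at the bottom.

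The largest rise was in LUM, which encodes lumican, a small proteoglycan that binds collagen fibres. It read 6.55 and 7.21 in the parental arrays and 11.41 and 11.17 in M3-1, a 21.2-fold difference (log2 4.41, SE 0.24, adjusted p = 3.02e-08). NQO1, a quinone reductase that detoxifies redox-active compounds, read 9.12 and 9.11 in parental cells and 13.49 and 13.36 in M3-1, a 19.8-fold rise (SE 0.12 on the log2 scale, adjusted p = 6.90e-11). The parental arrays were close to background for the first gene and well above it for the second. When all probes of a gene were averaged, the log2 differences were 3.76 for LUM and 3.64 for NQO1. LUM was also the only called member of the fibroblast and smooth muscle list, of which 7 of 18 genes were measured. Their summed linear intensity was 1178 to 1236 in parental cells and 3509 to 3975 in M3-1. Without LUM the other 6 summed to 1030 to 1142 and 1208 to 1256. Nearly all of the rise in the sum was therefore LUM itself. COL1A2, COL3A1, PDGFRA and PDGFRB, which define fibroblasts, were not above background on enough arrays to be tested. Which cells carried the LUM transcript was not tested, and the host in which the cells grew is not given. In bulk RNA, fewer cells of a type and less RNA per cell cannot be told apart, which holds for every difference below.

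LGALS4, a galectin of gut epithelium, read 7.61 and 7.49 against 11.14 and 11.02 in M3-1, 11.5-fold higher. S100P, a calcium-binding protein, went from 9.88 and 9.70 to 13.03 and 12.98, 9.32-fold. SPOCK2, a secreted proteoglycan also known as testican-2, rose 8.64-fold, from 8.76 and 8.30 to 11.64 and 11.65. In all 3 genes both M3-1 arrays lay far above both parental arrays. The cancer-testis antigen MAGEC2, normally limited to the testis, was not above background in parental cells (6.16 and 6.15) and read 9.48 and 9.49 in M3-1, at least 7.67-fold higher. The receptor gene P2RY1, which responds to extracellular ADP, read 6.58 and 6.60 against 9.62 and 9.64, 8.25-fold higher. CALCA, the gene of calcitonin and the peptide CGRP, went from 7.39 and 7.15 to 10.19 and 10.20, 7.59-fold. CGA, the alpha subunit shared by the glycoprotein hormones, read 7.53 and 8.09 against 10.15 and 10.58, 5.88-fold higher. With probes averaged, the log2 difference was 2.09 instead of 3.33 for MAGEC2 and 2.22 instead of 2.92 for CALCA.

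The remaining rises among the leading 15 were in genes of lipids, membranes and signalling. The phospholipase gene PLA2G4C rose 6.86-fold and ACSL1, which activates long-chain fatty acids, 6.77-fold. TM4SF1, a tetraspanin-like membrane protein, rose 6.46-fold, and KCNJ8, a subunit of ATP-sensitive potassium channels, 5.93-fold. TMEM45A, a transmembrane protein, and IER5L, an immediate early response gene, were 5.84-fold and 5.25-fold higher. The highest adjusted p among the 15 was that of CGA, 5.15e-06.

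**Figure D2:**
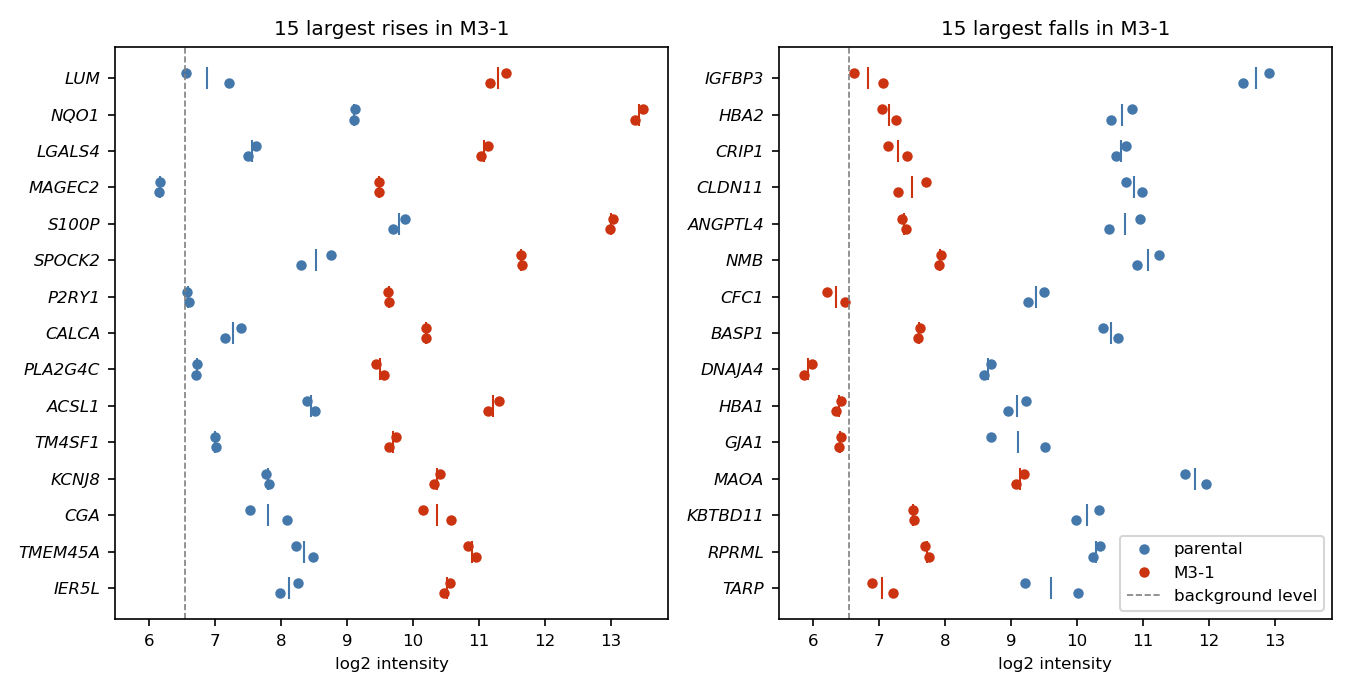
Log2 intensity on each parental (blue) and M3-1 (red) array for the 15 genes with the largest rises and the 15 with the largest falls. Vertical ticks are group means and the dashed line is the background level of 6.55. Red and blue points do not overlap for any gene, which the rule for naming these genes required.

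The largest change in either direction was the fall of IGFBP3, a secreted protein that binds insulin-like growth factors and limits their access to receptors. It read 12.91 and 12.52 in parental cells, among the brighter genes, and 6.62 and 7.05 in M3-1, just above background. The difference was 59.0-fold (log2 -5.88, SE 0.16, adjusted p = 6.90e-11). M3-2 (8.08 and 8.01) and the primary tumour derivative (8.21 and 8.16) also lay far below the parental arrays. The alpha-globin gene HBA2 read 10.84 and 10.52 against 7.05 and 7.26 in M3-1, 11.5-fold lower. HBA1 read 9.23 and 8.96 in parental cells and was not above background in M3-1 (6.43 and 6.35), at least 5.86-fold lower. The transcripts of these 2 globin genes are near-identical, so the probes may not separate them.

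Genes of cell junctions and membranes were also among the deepest falls. CLDN11, a tight junction claudin, went from 10.74 and 10.99 to 7.71 and 7.29, 10.3-fold lower. GJA1, which encodes the gap junction protein connexin 43, read 8.69 and 9.51 in parental cells and 6.42 and 6.39 in M3-1, at least 5.89-fold lower. BASP1, a membrane-associated protein of growing nerve endings, fell 7.51-fold, from 10.40 and 10.63 to 7.62 and 7.59. For GJA1 the parental arrays differed from each other more than for the other genes here, yet lay well above both M3-1 arrays.

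CRIP1, a small LIM-domain protein, read 10.74 and 10.59 against 7.13 and 7.43, 10.4-fold lower. ANGPTL4, a secreted inhibitor of lipoprotein lipase, read 10.96 and 10.48 against 7.35 and 7.41, 10.2-fold lower. CFC1, a co-receptor for Nodal ligands, read 9.50 and 9.26 in parental cells and 6.21 and 6.48 in M3-1, at least 7.12-fold lower. CFC1 has therefore only a bound in M3-1, as has DNAJA4, a cochaperone of the HSP70 system, which was at least 4.29-fold lower. With probes averaged, the log2 difference was -1.57 instead of -3.34 for ANGPTL4 and -1.81 instead of -3.03 for CFC1. MAOA, the mitochondrial enzyme that degrades serotonin and noradrenaline, read 11.64 and 11.95 against 9.20 and 9.08, 6.31-fold lower. KBTBD11 fell 6.22-fold, RPRML 5.93-fold, and TARP, a transcript of the T cell receptor gamma locus that prostate epithelium makes, 5.91-fold.

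The insulin-like growth factor list as a whole had 16 measured genes of 20 listed, of which 8 were lower and 1 higher, with a median difference of -0.46. Over all genes 5.49% were called lower and 4.43% higher, the shares to set beside this and every later list of the comparison with parental cells. The lists were chosen with earlier results of these data known. A count above these shares is therefore a description of the list and not a test of it. IGFBP5 and IGF1 passed the filter on dim probes through the parental arrays alone, so 2 of the 8 could hardly have been called in another direction. Beside IGFBP3, the receptor substrate gene IRS1 fell from 8.13 and 8.20 to 6.68 and 6.57 (log2 -1.54, SE 0.13, adjusted p = 1.95e-06). HTRA1, a secreted protease that cleaves IGF-binding proteins, was lower by a log2 difference of -0.93. IGFBP5, another binding protein, read 7.13 and 6.95 in parental cells and was not above background in M3-1, at least 1.41-fold lower. These 4 kept their calls in every setting that tested them. HTRA1 and IGFBP5 were too dim for the setting with a mean intensity above 7. IGFBP2 (-0.83), IRS2 (-0.60), IGF2BP3 (-0.59) and the ligand IGF1 (not above background in M3-1, at least 1.08-fold) lost them without M3-1 replicate 2 (adjusted p of IRS2 up to 0.203), which left 4 members lower. The single higher member, PAPPA (not above background in parental cells, at least 1.12-fold), lost its call in 5 settings, among them with either M3-1 array left out (adjusted p up to 0.388). With no filter on dim probes a different probe stood for IGF1, at 0.13 (adjusted p = 0.764).

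Androgen response genes were lower in most of the cases that passed. Of 27 listed genes 21 were measured, 12 were lower and 2 higher, against shares of 5.49% and 4.43% over all genes, and their median difference was -0.54. PMEPA1, an androgen-induced inhibitor of TGF-beta signalling, fell from 11.80 and 11.38 to 9.39 and 9.52 (log2 -2.14, SE 0.16, adjusted p = 5.84e-07). TMEFF2, a transmembrane protein of prostate epithelium, fell from 11.16 and 11 to 9.31 and 9.43, by 1.71 on the log2 scale. SLC45A3, known as prostein, went from 8.46 and 8.43 to 7.26 and 7.16, a difference of -1.23. All 3 were clear of overlap, with M3-1 arrays at least 2-fold below the parental ones.

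ZBTB16, a transcription factor induced by steroid hormones, fell by 1.13 and FKBP5, a cochaperone of steroid receptors, by 1.06, from 12.33 and 12.46 to 11.32 and 11.35. The protease gene TMPRSS2 went from 8.12 and 8.36 to 7.36 and 7.23 (log2 -0.95, adjusted p = 8.32e-04). KLK4, a kallikrein protease and the brightest member, went from 13.92 and 13.81 to 13.02 and 12.99 (-0.86). HPGD, which inactivates prostaglandins, and PLPP1, a lipid phosphatase, fell by 0.85 and 0.68. The other 3 lower calls were fragile, with ABCC4 (-0.70) lost without M3-1 replicate 2 (adjusted p = 0.163) and CAMKK2 (-0.54) and KLK15 (-0.49) lost in several settings.

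Not every androgen-regulated gene was lower. ELL2, a transcription elongation factor, rose from 10.18 and 10.38 to 11.04 and 11.06 (log2 0.77, adjusted p = 0.00303). FOLH1, which encodes prostate-specific membrane antigen and is known to be repressed by androgen, read 9.0 and 9.57 against 10.12 and 10.14, a difference of 0.84 (adjusted p = 0.0156) that lost its call without parental replicate 1 and with either M3-1 array left out (adjusted p up to 0.126). KLK2 (-0.40, adjusted p = 0.0731), STEAP1 (-0.45) and HOXB13 (0.49) did not pass. KLK3 was not above background on enough arrays to be tested.

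**Figure D3:**
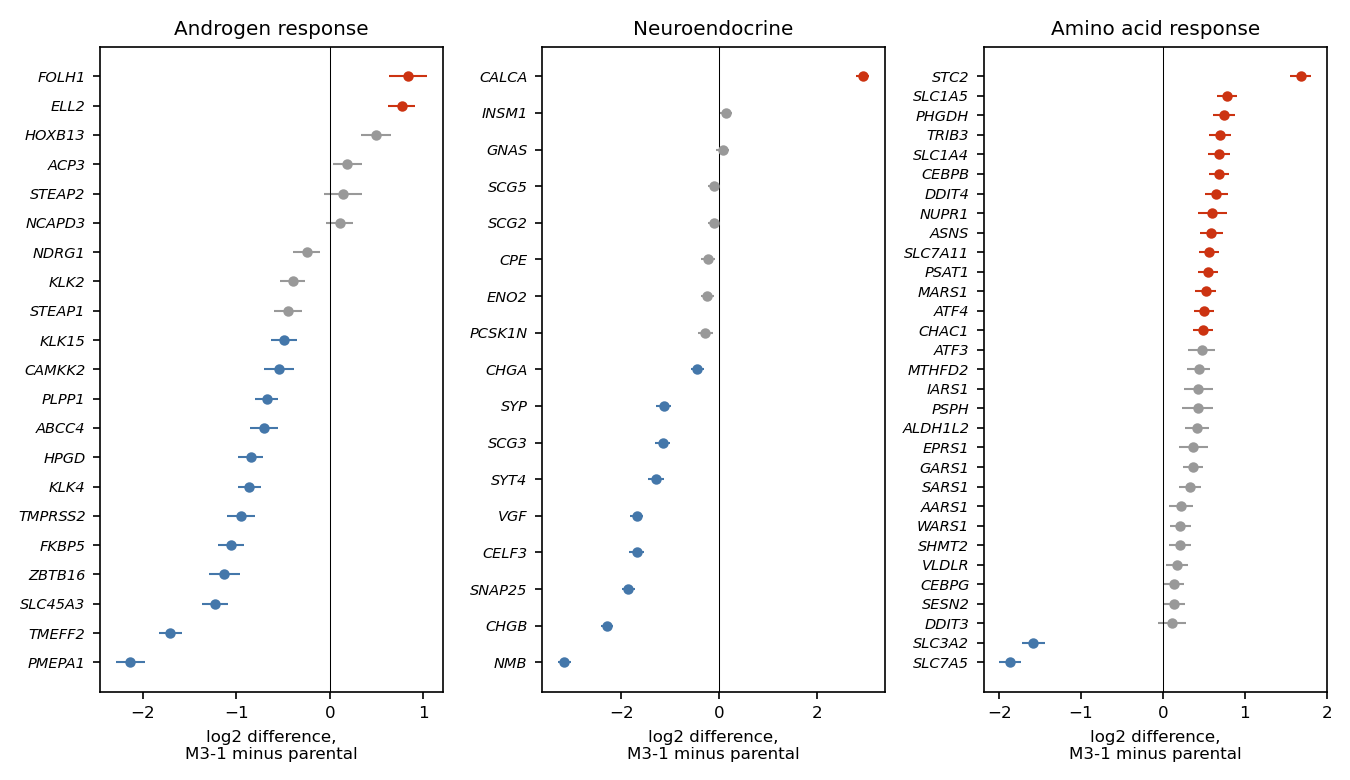
Log2 difference between M3-1 and parental cells with its standard error for each measured member of the androgen response genes (21), neuroendocrine genes (17) and amino acid response genes (31). Red marks genes called higher, blue genes called lower and grey genes that did not pass, and genes with only a bound are drawn at their fitted difference. Blue outnumbers red in the first 2 panels (12 to 2 and 9 to 1), and red outnumbers blue in the third (14 to 2).

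Enzymes that conjugate or reduce steroids were lower in 7 of 16 measured genes and higher in 1, with a median difference of -0.32. The glucuronosyltransferase genes of the UGT2B family, only some of which attach glucuronic acid to androgens, held the deepest falls. UGT2B17 went from 10.71 and 10.85 to 8.68 and 8.78 (4.15-fold, adjusted p = 3.17e-07). UGT2B11 fell 4.52-fold, UGT2B10 4.01-fold, UGT2B15 3.92-fold and UGT2B28 2.27-fold. Within the UGT2B family, and within the AKR1C family, the genes are so alike that a probe may read several of them. AKR1C2, which inactivates dihydrotestosterone, fell from 11.83 and 11.43 to 10.48 and 10.54 (2.17-fold). AKR1C3, which converts androstenedione to testosterone, moved the other way, from 12.20 and 11.98 to 12.96 and 12.87 (log2 0.83, SE 0.13, adjusted p = 8.68e-04). HSD11B2, which inactivates cortisol, was lower by 0.56 on the log2 scale and lost its call with either M3-1 array left out (adjusted p up to 0.184).

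Neuroendocrine genes, which serve the storage and release of peptides in secretory granules, were lower in 9 of 17 measured members of 29 listed and higher in 1. Their median difference was -0.45. NMB, the bombesin-like peptide neuromedin B, read 11.25 and 10.92 in parental cells and 7.93 and 7.91 in M3-1, 8.94-fold lower. The granule protein gene CHGB read 8.72 and 8.73 against 6.35 and 6.51, which are not above background, at least 4.53-fold lower. VGF, a precursor of secreted neuropeptides, stayed bright at 12.12 and 11.86 but was 3.22-fold below the parental 13.75 and 13.60. These falls covered dim and bright genes alike.

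Vesicle fusion genes of the same list fell too. SNAP25, part of the fusion complex, went from 9.11 and 9.10 to 7.14 and 7.36 (3.62-fold), and SYT4, a synaptotagmin, fell 2.45-fold. The granule gene SCG3 was 2.22-fold lower, the vesicle protein gene SYP 2.20-fold lower and CELF3, an RNA-binding protein of neurons, 3.22-fold lower. CHGA read 6.91 and 6.98 in parental cells and was not above background in M3-1 (6.52 and 6.47), at least 1.32-fold lower, and it lost its call in 5 settings, among them with either M3-1 array left out and without parental replicate 2 (adjusted p up to 0.291). The single rise in the list was CALCA, described above. CGA, the hormone subunit gene that rose 5.88-fold, was not on this list. INSM1 (0.14 on the log2 scale), SCG2 (-0.10) and ENO2 (-0.24) did not pass.

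Genes of the amino acid response moved mostly upward, by small steps. This pathway, run by the transcription factor ATF4, is switched on when amino acids are short or proteins misfold, and it raises amino acid transporters, synthesis enzymes and aminoacyl-tRNA synthetases. Of 31 measured genes of 32 listed, 14 were higher and 2 lower, with a median difference of 0.44. Without M3-1 replicate 1 or without M3-1 replicate 2 the number higher was 5 in each case, so most of these calls needed both arrays. STC2, a secreted glycoprotein, had the largest rise, from 8.45 and 8.44 to 10.06 and 10.20 (log2 1.68, SE 0.13, adjusted p = 9.71e-07). SLC1A5, a glutamine transporter, went from 9.91 and 9.89 to 10.74 and 10.63 (0.78), PHGDH, the first enzyme of serine synthesis, from 13.21 and 12.98 to 13.88 and 13.81 (0.75), and CEBPB, a transcription factor, from 11.62 and 11.58 to 12.31 and 12.26 (0.68). These 4 kept their calls in every setting.

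The other 10 higher members lost their calls without at least 1 of the M3-1 arrays. SLC7A11 and CHAC1 were not above background in parental cells and have only bounds, and the other 8 lay between 0.50 and 0.70 on the log2 scale. Among them were the regulator ATF4 itself, which read 13.96 and 14 in parental cells and 14.44 and 14.52 in M3-1 (0.50, adjusted p up to 0.212), the pseudokinase gene TRIB3 (0.70, up to 0.0942) and the asparagine synthetase gene ASNS (0.59, up to 0.188). Both fallen members encode chains of a single heterodimer that carries amino acids. SLC7A5, the light chain that carries leucine and other large neutral amino acids, went from 14.20 and 14.09 to 12.24 and 12.33 (log2 -1.86, SE 0.13, adjusted p = 4.55e-07). SLC3A2, its heavy chain, fell from 12.55 and 12.21 to 10.74 and 10.86 (-1.58). They thus stood apart from the other transporters of the list, SLC1A5, SLC1A4 (0.69) and SLC7A11 (at least 1.30-fold), which were called higher.

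ATF4 binds a composite element whose core, TGATGNAA, was searched on both strands in the 250 bases before the RefSeq start of each gene (GRCh38.p14). It occurred in 8 of the 26 amino acid response genes with a promoter in the table (30.8%), against 238 of 9839 tested genes (2.42%) and 1061 of 27305 genes in all (3.89%). The list was made of genes of the pathway that ATF4 runs, so its higher share comes with the choice of genes and is no result of these arrays. The 8 were 3 of 12 genes called higher and 5 of 14 not called higher, too few to say whether holding the letters went with the call. A match is a description of the sequence and not evidence of binding. The stretches around it are shown for the 3 genes called higher and for ATF3, the not-called gene with the match that had the largest difference (0.48), with the match in capitals, read 5′ to 3′ on the strand of the gene. They lie at chr7:97872449-97872496 (minus strand, ASNS), chr19:46784884-46784931 (minus strand, SLC1A5), chr15:40953242-40953289 (plus strand, CHAC1) and chr1:212565196-212565243 (plus strand, ATF3). In CHAC1 the match is on the opposite strand.
ASNS: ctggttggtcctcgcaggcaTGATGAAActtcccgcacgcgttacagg
SLC1A5: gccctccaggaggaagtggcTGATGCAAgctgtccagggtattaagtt
CHAC1: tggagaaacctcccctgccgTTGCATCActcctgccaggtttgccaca
ATF3: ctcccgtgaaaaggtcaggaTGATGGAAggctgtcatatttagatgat

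The match began 68 bases before the start of ASNS and 97 bases before that of SLC1A5. In CHAC1 and ATF3 it lay farther out, at 209 and 191 bases. CHAC1, which degrades glutathione, was dim, with parental arrays not above background at 6.17 and 6.24 and M3-1 at 6.66 and 6.73 (at least 1.11-fold, with the call lost with either M3-1 array left out, adjusted p up to 0.208).

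NRF2 is a transcription factor that raises detoxifying and antioxidant enzymes, and NQO1 is its best known target. Among 23 measured NRF2 and redox genes 8 were higher and 2 lower, with a median difference of 0.17, and the number higher was 5 with either M3-1 array left out. Beside NQO1, the export pump gene ABCC3 was not above background in parental cells (6.29 and 6.36) and read 7.80 and 7.73 in M3-1, at least 2.33-fold higher. ME1, the NADPH-producing malic enzyme, went from 7.29 and 7.51 to 8.44 and 8.36 (log2 1.00, adjusted p = 3.72e-04), and the carbonyl reductase gene CBR3 from 8.16 and 8.23 to 9.08 and 8.88 (0.79). The rise of NQO1 was far larger than that of any other member. No member of the list stood more than 0.68 above M3-2 or 1.39 above the primary tumour derivative on the log2 scale. Most of the NQO1 rise was therefore not particular to M3-1. GCLC, the catalytic subunit for glutathione synthesis, fell from 9.96 and 10.29 to 9.30 and 9.13 (-0.91, adjusted p = 7.28e-04), while GCLM (0.18), HMOX1 (0.17), TXNRD1 (-0.09) and SRXN1 (-0.16), which are also well-known targets, did not pass. NFE2L2, the gene of NRF2, differed by -0.13 and its inhibitor KEAP1 by -0.24, and neither passed.

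**Figure D4:**
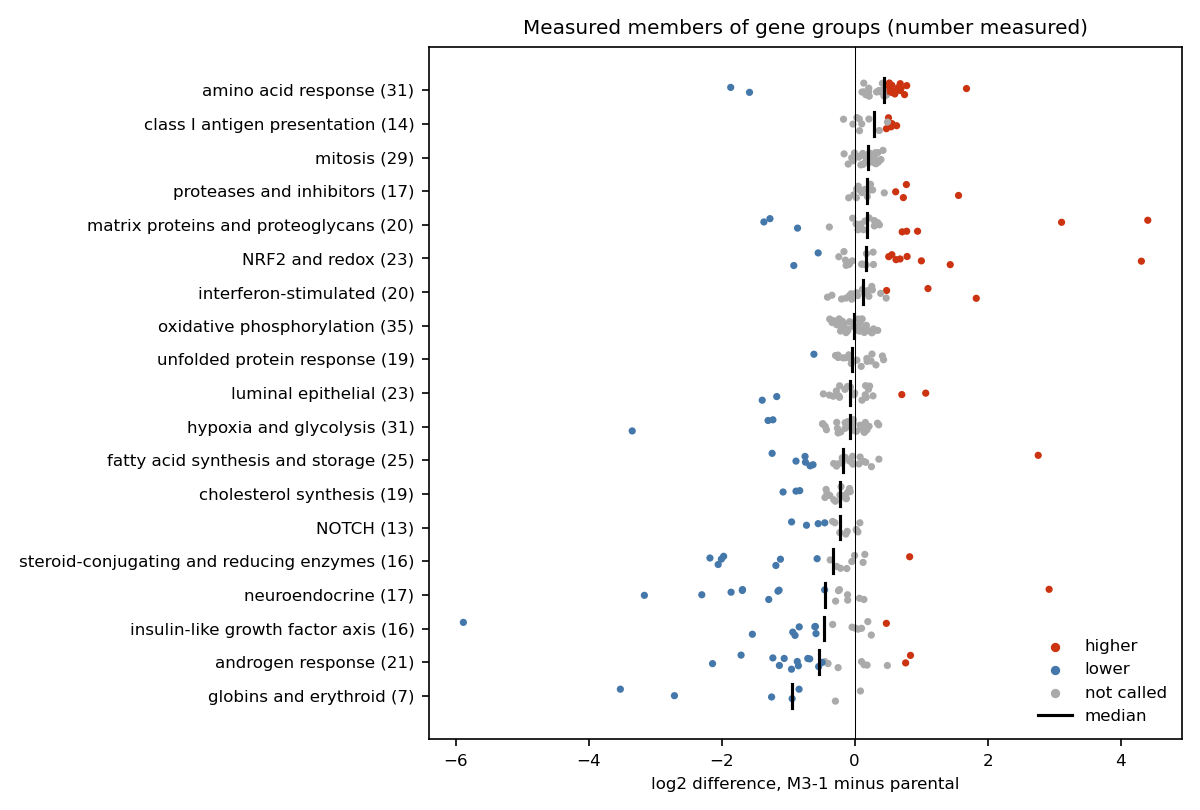
Log2 difference between M3-1 and parental cells for each measured member of 19 gene groups, with the number measured in brackets and the group median as a black bar. Red and blue points are genes called higher and lower. Genes with only a bound are drawn at their fitted difference. Medians run from -0.94 for the globin and erythroid genes, whose middle gene has only a bound, to 0.44 for the amino acid response.

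Matrix proteins and proteoglycans changed in both directions, with 5 of 20 measured genes higher, 3 lower and a median difference of 0.19. After LUM and SPOCK2 the higher members were COL9A2, a collagen chain (at least 1.74-fold, not above background in parental cells), SDC1, a cell-surface proteoglycan (log2 0.78), and COL4A2, a basement membrane collagen chain (0.71, lost without M3-1 replicate 1, adjusted p = 0.0999). EFEMP1, which encodes fibulin-3, read 7.34 and 7.51 in parental cells and was not above background in M3-1 (6.22 and 5.90), at least 1.84-fold lower. SPOCK1, a relative of SPOCK2, went from 8.35 and 8.38 to 7.07 and 7.11 (-1.27). The 2 SPOCK genes thus changed in opposite directions. COL9A2 was above background on fewer than 2 arrays outside M3-1, so it passed the filter through M3-1.

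Among 17 measured proteases and inhibitors 4 were higher and none lower. A2M, a broad protease inhibitor, rose from 7.38 and 7.30 to 8.96 and 8.85 (log2 1.56, adjusted p = 2.79e-06), and ADAMTS1, a secreted metalloprotease, by 0.78. CTSL, a lysosomal protease, differed by 0.73 and lost its call when the probes of a gene were averaged (adjusted p = 0.0615). SERPINE2, an inhibitor of serine proteases, differed by 0.62 and lost it with either M3-1 array left out (adjusted p up to 0.0989).

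Cell adhesion and motility genes showed no common direction. Of 17 measured mesenchymal and motility genes 5 were lower and 1 higher, or 3 lower with either M3-1 array left out, and their median difference was 0.02. The fibronectin receptor subunit gene ITGA5 fell from 8.29 and 8.07 to 6.57 and 6.78 (log2 -1.51, adjusted p = 3.32e-06). N-cadherin, encoded by CDH2, went from 10.44 and 10.46 to 9.48 and 9.44 (-0.99), and the matrix protein gene TNC fell by 0.86. MSN, a linker of membrane and actin, rose by 0.75. VIM, the intermediate filament gene often raised in mesenchymal transition, differed by 0.11 and did not pass, like CDH1 (-0.23). CD44 (-0.62) and FSCN1 (-0.64) lost their calls with either M3-1 array left out and without parental replicate 2 and 1, in that order (adjusted p up to 0.212).

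Within the 16 measured junction genes CLDN1 rose from 6.62 and 6.83 to 7.81 and 7.71 (log2 1.04, adjusted p = 0.00120) as CLDN11 and GJA1 fell. GJB1, a connexin, was the other higher member (0.54) and lost its call without parental replicate 2 and with either M3-1 array left out (adjusted p up to 0.201). Luminal epithelial genes were near balance, with 2 of 23 higher and 2 lower. SPINT2, an inhibitor of epithelial surface proteases, rose from 12.61 and 12.35 to 13.51 and 13.59 (1.07). CD24, a surface glycoprotein, fell from 9.85 and 10.13 to 8.68 and 8.51 (-1.39), and AGR2, a disulphide isomerase of mucus-secreting cells, by 1.17. KRT18, the partner of KRT8, was higher by 0.71 and lost its call without M3-1 replicate 1 (adjusted p = 0.0728). Of the 18 gut-type mucosal genes measured, the transmembrane mucin gene MUC13 (log2 1.12) rose with LGALS4, while SPINK1, a trypsin inhibitor, fell from 13.39 and 14.24 to 12.42 and 12.36 (-1.43).

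In the TGF-beta and BMP list, 5 of 22 measured genes were lower and 2 higher. The ligand gene TGFB3 fell from 9.43 and 9.52 to 8.24 and 8.26 (log2 -1.22, adjusted p = 2.28e-05). The BMP-responsive inhibitors of differentiation ID4 and ID3 fell by 1.13 and 0.91. BAMBI, a decoy receptor of the pathway, rose from 9.14 and 8.85 to 10.01 and 9.94 (0.98), and INHBB, a subunit of activins, by 1.01. The fifth lower call, SMAD7 (-0.53), was lost in 8 settings.

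Among growth factor genes, HGF, the ligand of the MET receptor, went from 9.92 and 9.81 to 7.82 and 7.80 (log2 -2.06, SE 0.14, adjusted p = 3.13e-07), or -1.39 with probes averaged. The receptor gene FGFR4 read 7.54 and 7.33 in parental cells and was not above background in M3-1, at least 1.85-fold lower. The feedback inhibitor genes SPRY1 (0.66) and SPRY4 (0.49) and the immediate early gene EGR1 (0.63) were called higher and SPRY2 (-0.56) lower, but each of these 4 lost its call without M3-1 replicate 1 (adjusted p up to 0.161). Of the 26 measured genes of this list 3 were thus higher and 3 lower, with 5 higher without parental replicate 2, 1 without M3-1 replicate 2 and none without M3-1 replicate 1. In the WNT list, where 1 of 20 genes was higher and 3 lower, the receptor genes FZD4 (0.74) and FZD8 (-0.90) moved in opposite directions, and NKD2, a negative regulator, fell by 0.92. MYC, a WNT target, went from 12.27 and 12 to 11.62 and 11.64 (-0.50), and lost its call without parental replicate 1 and with either M3-1 array left out (adjusted p up to 0.215).

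All 4 NOTCH genes that passed were lower, of 13 measured, with a median of -0.22. The receptor gene NOTCH3 went from 8.27 and 8.24 to 7.28 and 7.34 (log2 -0.95, adjusted p = 1.84e-04). The ligand gene JAG2 (-0.72) and the target genes HES1 (-0.55) and HEY1 (-0.45) lost their calls without M3-1 replicate 2 (adjusted p up to 0.257), which left 1 gene lower, and 2 were lower without M3-1 replicate 1.

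In the cholesterol and fatty acid lists the genes that passed were lower, apart from ACSL1. In the cholesterol synthesis pathway 3 of 19 genes fell, and the count was 6 without parental replicate 1 and 5 without parental replicate 2. LSS, the lanosterol synthase gene, went from 10.24 and 9.86 to 8.84 and 9.11 (log2 -1.08, adjusted p = 2.99e-04), and the early enzyme gene HMGCS1 from 11.80 and 12.31 to 11.15 and 11.20 (-0.88). The reductase gene TM7SF2 was the third, at -0.83. Called or not, all 19 measured members lay below parental cells, between -1.08 and -0.07, with a median of -0.22. In fatty acid synthesis and storage 6 of 25 genes were lower and 1 higher, or 3 lower without M3-1 replicate 2. SCD, which makes monounsaturated fatty acids, fell from 13.42 and 13.36 to 12.64 and 12.64 (-0.75), and LPL, a lipoprotein lipase, from 7.56 and 7.69 to a level not above background, at least 2.12-fold. AGPAT2, an enzyme of triglyceride assembly, fell by 0.88. The elongase genes ELOVL6 (-0.74) and ELOVL5 (-0.67) and the acyltransferase gene DGAT2 (not above background in M3-1, at least 1.24-fold) lost their calls without M3-1 replicate 2 (adjusted p up to 0.24). DGAT2 passed the filter on dim probes through the parental arrays.

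Hypoxia and glycolysis genes passed in 3 of 31 cases, a share close to the 9.92% of all genes. They were lower, with 5 lower with either parental array left out and a median of -0.07. These were ANGPTL4, BNIP3, a mitophagy receptor that went from 11.12 and 10.76 to 9.70 and 9.58 (log2 -1.30), and PFKFB4, a regulator of glycolysis, which fell by 1.23. No member of the oxidative phosphorylation list passed, of 35 measured, and the median was -0.01.

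Purine signalling genes held large changes in both directions, with 3 of 18 higher and 2 lower. DPP4, a surface peptidase that anchors adenosine deaminase, rose from 7.38 and 7.28 to 9.46 and 9.41 (log2 2.11, SE 0.14, adjusted p = 2.64e-07), beside P2RY1. The adenosine receptor gene ADORA2A rose by 0.79. ADA2, a secreted adenosine deaminase, fell from 10.02 and 9.69 to 7.66 and 7.62 (-2.21, adjusted p = 1.97e-07), and the channel gene P2RX5 (-0.50) lost its call without parental replicate 1 and with either M3-1 array left out (adjusted p up to 0.299). Of 12 measured potassium channel genes, KCNMB4, a regulatory subunit of calcium-activated channels, fell from 8.83 and 8.86 to 6.89 and 6.97 (-1.92). KCNS3 fell by 0.99 and KCNG1 rose by 0.87, both of them silent subunits that modify other channels. KCNJ8, the channel gene among the leading rises (log2 2.57), was not on this list.

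Interferon-stimulated genes were higher in 3 of 20 cases, with a median of 0.13. BST2, which tethers budding viruses, went from 6.81 and 6.63 to 8.52 and 8.58 (log2 1.83, adjusted p = 7.52e-07), and the antiviral GTPase gene MX1 from 7.90 and 7.54 to 8.88 and 8.77 (1.10). OAS3 (0.48) lost its call in 6 settings. IFIT1, IFIT2, IFIT3 and IFI27, which respond strongly to interferon, were not above background on enough arrays to be tested. Class I antigen presentation had 5 of 14 genes higher, HLA-B, HLA-C, HLA-E, HLA-F and the peptide transporter gene TAP1, between 0.48 and 0.63, with a median of 0.29. No member was called without M3-1 replicate 1, none without M3-1 replicate 2 and 3 without parental replicate 2, and class I genes share much of their sequence.

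Globin and erythroid genes were lower in 5 of 7 measured members of 17 listed, but HBM and HBE1 passed the filter on dim probes through the parental arrays alone, so the count of 5 is no support for a fall of the group. HBQ1, the theta globin gene, went from 10.86 and 10.41 to 9.39 and 9.40 (log2 -1.25, adjusted p = 8.38e-05), and HBM, the mu globin gene, read 7.02 and 6.65 in parental cells and was not above background in M3-1, at least 1.23-fold lower. HBE1, not above background in M3-1 either and at least 1.55-fold lower, lost its call without M3-1 replicate 2 (adjusted p = 0.0507). HBB, ALAS2, SLC4A1 and KLF1, which define red cells and their precursors, were not above background on enough arrays to be tested. The summed linear intensity of the 7 members was 3804 to 4749 in parental cells and 1218 to 1235 in M3-1.

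Cell cycle genes differed little. None of 29 mitosis genes passed, with a median difference of 0.20, and MKI67, the proliferation marker, read 8.24 and 8.32 against 8.71 and 8.70 (log2 0.43, adjusted p = 0.0631). Of 34 G1/S and replication genes 2 were lower and 1 higher, again a share close to that of all genes. The inhibitor gene CDKN1B fell from 11.03 and 11.51 to 9.81 and 9.81 (-1.46, adjusted p = 2.52e-05), while CDK6 (-0.43) and TK1 (0.47) lost their calls with either M3-1 array left out. CCND1, a cyclin gene, differed by -0.06 and did not pass. TNFRSF10B, a death receptor gene and p53 target, rose from 10.02 and 9.93 to 10.74 and 10.77 (0.78), and BAX (-0.65) and AEN (0.43) lost their calls without M3-1 replicate 1. In the unfolded protein response 1 of 19 genes passed, HSPA5 (-0.61), and it lost its call with either M3-1 array left out (adjusted p up to 0.0894). Lists for endothelial cells, leukocytes, hepatocytes and adipocytes had 1, 6, 4 and 1 measured genes, none of them called. ALB, the albumin gene, was bright in both lines, at 13.52 and 13.84 in parental cells and 13.78 and 13.67 in M3-1.

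In the smaller or quieter lists, single genes carried the change. Of 13 measured S100 genes, S100A10, the partner of annexin A2, fell from 14.10 and 13.91 to 12.73 and 12.65 (log2 -1.31, adjusted p = 9.79e-06) while S100P rose. Among 13 cancer-testis genes MAGEC2 was the only one called higher, GAGE12F fell to a level not above background, at least 1.46-fold, and PRAME (-0.64) lost its call without M3-1 replicate 2 (adjusted p = 0.151). In the cytosolic heat shock list 3 of 22 genes were lower and 1 higher, and DNAJA4 alone kept its call with either M3-1 array left out. The chaperone genes HSPA1A (-0.59) and CRYAB (not above background in M3-1 and above it on 1 parental array, so with no fold) and the higher HSPA2 (0.54) did not (adjusted p up to 0.399). Integrin genes had 1 of 11 lower, ITGA5, and 1 higher, ITGA2 (0.47), which lost its call with either M3-1 array left out (adjusted p up to 0.235). The same held for the only called gene of the 9 inflammatory genes, the chemokine gene CXCL16 (0.55, adjusted p up to 0.158), and of the 6 basal prostate genes, the laminin gene LAMB3 (0.47, adjusted p up to 0.313).

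To see what set M3-1 apart from the second metastatic derivative, M3-1 was compared with M3-2, where 303 genes (2.47%) differed, 129 higher (1.05%) and 174 lower (1.42%) in M3-1. Leaving out 1 array moved this count to between 94 (M3-1 replicate 2) and 226 (M3-2 replicate 2), with 100 without M3-1 replicate 1 and 136 without M3-2 replicate 1. Among genes also called against parental cells, the largest difference was in ELF5, an epithelial transcription factor. It read 9.37 and 9.35 in M3-1 and was not above background in M3-2 (6.38 and 6.40), at least 7.03-fold, while parental cells read 8.07 and 8.58. With probes averaged the log2 difference from M3-2 was 1.86 instead of 2.97 for ELF5 and 1.38 instead of 2.03 for MAGEC2. MAGEC2 read 7.47 and 7.45 in M3-2, so M3-1 was 4.08-fold higher. The homeobox gene MSX1 read 9.23 and 9.08 in M3-1 against 7.60 and 7.30, 3.26-fold, and the tubulin gene TUBB2B 11.36 and 11.34 against 9.73 and 9.75, 3.05-fold. Against parental cells TUBB2B differed by 0.60 on the log2 scale, a call lost with either M3-1 array left out (adjusted p up to 0.0926). CALCA was 3.0-fold and CGA 2.88-fold higher than in M3-2, and CGA lost its call without M3-1 replicate 2 or M3-2 replicate 1 (adjusted p up to 0.0671).

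On the lower side, MAOA stood at 11.61 in both M3-2 arrays, close to the parental level, and M3-1 was 5.56-fold below it. SLC68A1, a solute carrier gene formerly called TMEM180, read 8.77 and 8.83 in M3-1 against 11.26 and 11.41, 5.80-fold lower, and the kallikrein gene KLK11 read 7.53 and 7.63 against 9.94 and 9.82, 4.91-fold lower. AGR2 was 4.57-fold, BASP1 4.32-fold and SYT7, a synaptotagmin, 3.46-fold below M3-2. For SLC68A1, AGR2 and KLK11, M3-2 lay above both parental arrays and M3-1 below them. Only 1 of the 3 probes of SYT7 above background moved in its direction between parental cells and M3-1, and with probes averaged its log2 difference was -0.52 from M3-2 and -0.71 from the primary tumour.

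**Figure D5:**
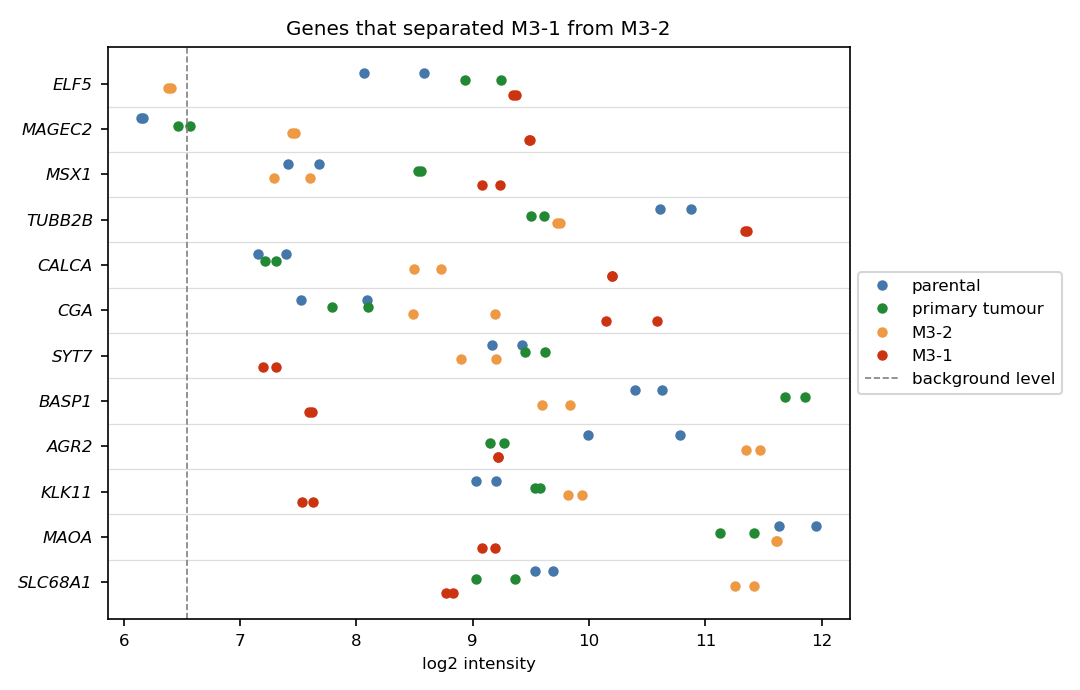
Log2 intensity on each array of the 4 groups for the 12 genes with the largest differences between M3-1 (red) and M3-2 (orange) among genes also called against parental cells (blue). The dashed line is the background level of 6.55. The 2 arrays of M3-1 lie on one side of both M3-2 arrays for every gene, as the naming rule required.

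Against the primary tumour derivative 1083 genes (8.81%) differed, 479 higher (3.9%) and 604 lower (4.91%) in M3-1, and the count lay between 428 and 579 when M3-1 replicate 1 (428), M3-1 replicate 2 (457), primary tumour replicate 1 (518) or primary tumour replicate 2 (579) was left out. EFEMP1 read 10.44 and 10.41 in the primary tumour, and M3-1 was at least 14.7-fold lower. BASP1 was 18.0-fold lower than in the primary tumour, where it read 11.69 and 11.86. The neuronal adhesion gene CNTNAP2 was 6.23-fold, HBA2 5.89-fold, GJA1 at least 5.77-fold and SYT7 4.87-fold lower. KCNJ8, at 7.04 and 7.22 in the primary tumour, was 9.39-fold higher in M3-1, MAGEC2 7.82-fold, CALCA 7.64-fold, LUM 7.48-fold, CGA 5.34-fold and IER5L 4.97-fold. With probes averaged the log2 difference of MAGEC2 was 1.87 instead of 2.97. S100P, in contrast, read 12.99 and 13.02 in the primary tumour and did not pass.

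The 3 comparisons share the M3-1 arrays, so their counts are not independent of each other. Of the 21 androgen response genes, 12 were lower and 1 higher in M3-1 than in the primary tumour, where 4.91% of all genes were lower and 3.9% higher. Lower than in M3-2 were 5, against 1.42% of all genes. Of the 31 amino acid response genes, 16 were higher and none lower than in the primary tumour, and none passed against M3-2. AKR1C3 was higher in M3-1 than in each of the other groups. In the neuroendocrine list 6 genes were lower and 1 higher than in the primary tumour, and 3 were lower and 1 higher than in M3-2, where 1.05% of all genes were higher.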

How the data were processed

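Column-purified total RNA was made into biotin-labelled cRNA for the bead arrays, per the labels' protocols. The authors deposited log2 intensities for 47320 probes. The sources used here name no software or normalization, but the arrays share 1 distribution (largest spread at any rank 0.012), as after quantile normalization. A further table with raw signals was left out because its 16 columns match no sample's labels, so the planned control-probe background correction and detection p-values were not applied.

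The background level was the mode of all values, 6.12, plus the 0.99 normal quantile of the spread below it (SD 0.183), which gave 6.55. GEO's platform annotation named 30112 probes with 1 gene, 8 with several and 17200 with none, and 0 symbols needed updating. The brightest probe above background on average stood for each gene, leaving 12291 genes from 16731 probes. All probes of a gene moved in the same direction between parental cells and M3-1 in 56 of 59 named genes that had several. The exceptions were EZH2, MAGEA6 and SYT7.

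A model of 4 group means was fitted to all 8 arrays with limma 3.58.1 in R 4.3.3 (lmFit, eBayes, 4 residual and 9.38 prior degrees of freedom). Where a group was at or below 6.55 on both arrays, folds are given as "at least", against that level. Named genes were the 15 largest rises and falls with non-overlapping arrays, the 6 largest each way against M3-2 and against the primary tumour, the 4 largest changes of each of 40 lists, and a fixed set of prostate genes. Other list members are named to account for each list's calls. The members and lists were chosen with earlier results of these data known. Promoter sequences are RefSeq's (GRCh38.p14). The labels do not say that replicate numbers pair the samples. The deviations of same-numbered arrays correlated across genes at -0.18 between parental cells and M3-1, -0.02 between M3-1 and M3-2, -0.14 between M3-1 and the primary tumour, 0.14 and 0.17 between M3-2 and parental cells and the primary tumour, and 0.52 between parental cells and the primary tumour, so the numbers were not used as a block. The code was tested on simulated data.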

Additional observations from a re-analysis of the deposited data

Results flagged for a closer look

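M3-1 and M3-2, compared by the limma contrast between them, differed in 303 genes, so that their differences from the shared parental arrays were unequal for these genes. Among the genes named above, M3-1 was lower than M3-2 by a log2 difference of -2.54 in SLC68A1, -2.47 in MAOA, -2.30 in KLK11, -2.19 in AGR2, -2.11 in BASP1 and -1.79 in SYT7. The difference was -1.52 in HBA2, -1.46 in SPOCK2, -1.21 in IGFBP3, -1.20 in LGALS4, -0.93 in KBTBD11 and -0.88 in HBA1. It was higher than M3-2 by 2.97 in ELF5, 2.03 in MAGEC2, 1.71 in MSX1, 1.61 in TUBB2B, 1.58 in CALCA and 1.53 in CGA, and by 0.94 in TM4SF1, 0.90 in ACSL1 and 0.69 in TMEM45A. SPOCK2 and LGALS4 rose against parental cells in M3-1 and stood higher still in M3-2, while IGFBP3 and HBA2 stood lowest in M3-1.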

How the results depend on the processing

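For M3-1 against parental cells, other filters, probe rules, centring and variance settings kept the count of 1219 genes within 1.5 times, from 926 to 1250 per gene, and 1733 of 47320 probes were called when every probe was tested alone. Leaving out 1 array gave 572 to 1599 genes, and 112 to 187 list members against 169. Against M3-2, with 303 genes and 61 list members called, the fit on only the arrays compared gave 484 and 93, array weights gave 548 and 101, and leaving out 1 array gave 94 to 226 and 27 to 53. Against the primary tumour, with 1083 and 160, the same settings gave 2253 and 257, 2389 and 263, and 428 to 579 and 88 to 110. Of 188 genes called against parental cells among those named or listed, 123 kept the call in every gene-level setting that tested them. The only reversal was IGF1 at 0.13 with no filter on dim probes. With the replicate number as a block 1434 genes were called against parental cells, 389 against M3-2 and 1352 against the primary tumour, and numbers crossed between parental and M3-1 arrays, a pairing chosen after seeing the data, gave 1533. A lone array left in a group is assumed to vary like the other groups. Of the calls against parental cells, 455 higher and 585 lower reached 0.5 on the log2 scale, and genes near background have only bounds.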
